A study of Ovis aries with 15 samples.

Results

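Integrins and laminins, the cell surface receptors and the basement membrane proteins that join the mammary epithelium to its matrix, were examined in RNA-seq libraries of the ovine mammary gland. The genes were every row of the table of 24691 features whose symbol has the form of an integrin alpha or beta chain or of a laminin alpha, beta or gamma chain. This gave 38 genes, of which 37 are described here, 26 encoding integrins and 11 encoding laminins. Needle biopsies of mammary parenchyma had been taken from primiparous Romney ewes of 2 years, on day 135 of gestation ± 2.4 (SD) and on day 15 post partum ± 1.27 (SD), and the RNA of several ewes was pooled for each library. There were 9 late pregnancy pools and 6 lactation pools. The ewes' own dams had received an ad libitum (HM), maintenance (MM) or sub-maintenance (LM) pasture allowance from day 21 to day 50 of gestation and maintenance feeding from then to day 140, and each of these 3 dam feed groups held 3 late pregnancy and 2 lactation pools. The ewes themselves were kept alike on pasture. The methods describe 3 ewes per pool, the series text gives 2 for a lactation pool, and the lactation biopsies were a repeat sampling of these ewes. The sources used here do not say which ewes were in which pool, so pools of both states may share ewes and were compared as unpaired.

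Laminins are trimers of an alpha, a beta and a gamma chain that polymerise into the sheet of the basement membrane, and each tissue assembles its own set of chains. Integrins are heterodimers of an alpha and a beta chain that span the plasma membrane, bind laminins, collagens, fibronectin or receptors on other cells, and link them to the actin or keratin cytoskeleton. In the mammary gland the epithelium, the myoepithelium, blood vessels, stroma and resident leukocytes each carry integrins, and adhesion to laminin through beta 1 integrins is known to be needed for milk protein expression in cultured mammary epithelium.

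Between 7597938 and 19823166 reads lay on genes in the late pregnancy pools, and between 10352962 and 25679416 in the lactation pools. The milk protein genes, which define secretory mammary tissue, took between 13.7 and 23.4% of a late pregnancy library and between 71.3 and 75.8% of a lactation library, so the labels of tissue and state matched the data in every library. Lactation libraries therefore left fewer reads for the integrins and laminins. One library stood apart: in HM lactation pool 1, 86.8% of the reads on genes fell on exons, beside 93.3 to 94.2% in the other lactation pools and 83.9 to 85.6% in late pregnancy. Levels are given as CPM, reads on exons per 1000000 reads of a library scaled by the trimmed mean of M-values (TMM), and levels of different genes are compared only as CPM per kilobase of exon. Reads were counted without molecular identifiers, so the spread between pools is the measure of error.

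Of the 37 genes, 35 held enough reads for a test. ITGA8, the alpha chain that pairs with beta 1 to bind nephronectin, had 1 to 15 reads in late pregnancy libraries and 0 to 4 in lactation libraries. LAMA1, the alpha chain of the early embryonic basement membrane, had 0 to 16 and 0 to 8 reads. No direction was read for these genes. ITGAD with 0 to 6 reads, ITGB3 with 0 to 9, ITGB8 with 1 to 10, ITGA11 with 2 to 11 and ITGA4 with 3 to 18 reads in lactation passed the filter on their reads in late pregnancy, and their lactation values rest on few reads. ITGAX with 5 to 41, ITGA7 with 8 to 34, ITGA2 with 8 to 29 and ITGAM with 6 to 20 reads in lactation did not reach the filter level in every lactation library. All 37 genes have an annotated transcript, and 99.1 to 100% of the reads on the exons of each gene were uniquely placed.

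Integrin transcripts were led by 3 genes. Per kilobase, ITGB1, the beta chain shared by most matrix receptors, stood at 67.1 ± 6.8 CPM in late pregnancy (SD, n = 9) and 65.9 ± 2.7 in lactation (SD, n = 6). ITGA6, an alpha chain of laminin receptors, followed at 40.7 ± 3.0 and 35.5 ± 2.1, and ITGB6, the epithelial partner of the alpha v chain, at 31.5 ± 6.2 and 19.2 ± 3.0. Every other integrin lay below these, the nearest being ITGAV at 7.30 ± 1.1 and 11.2 ± 2.5 CPM per kilobase. LAMB1 was the most abundant laminin per kilobase in both states (12.5 ± 1.2 and 12.2 ± 1.1). LAMC1 was next in late pregnancy (8.52 ± 0.91) and LAMB3 in lactation (9.66 ± 1.9), and each had a neighbour within 1 SD of it, LAMB3 in late pregnancy (7.80 ± 0.80) and LAMA3 in lactation (8.0 ± 2.7). Summed over the family, integrin levels were 166 to 207 CPM per kilobase in late pregnancy and 156 to 173 in lactation, and the levels of the 11 laminins 47.0 to 57.1 and 48.9 to 58.2, so that the summed level of laminins covered much the same range in both states.

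**Figure D1:**
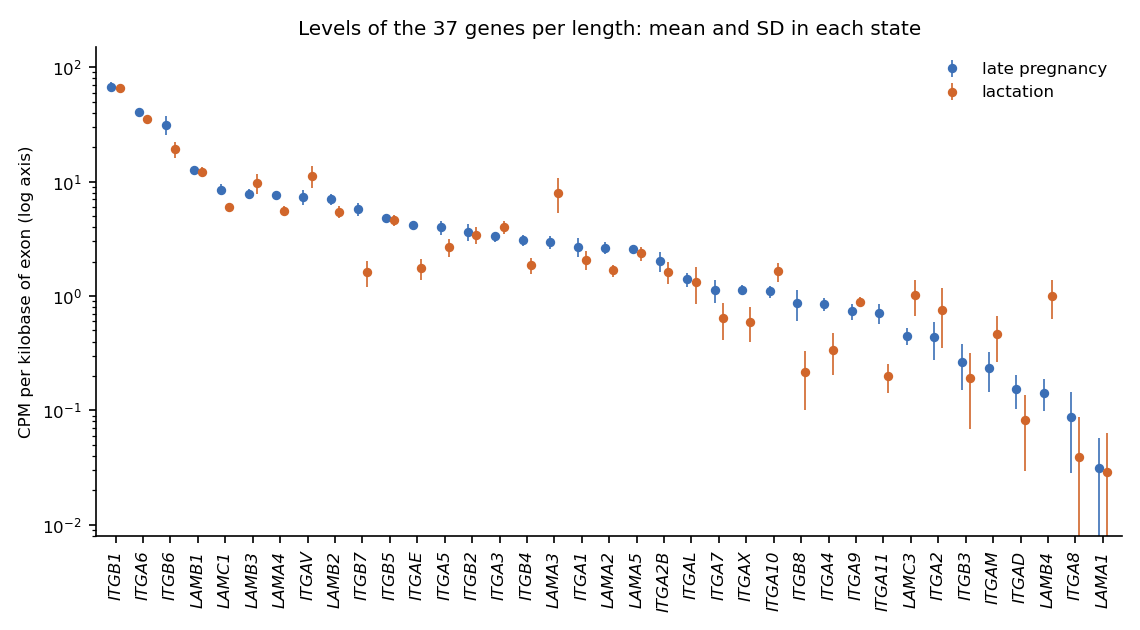
Mean level of each of the 37 genes in CPM per kilobase of exon (log axis) in late pregnancy (blue, 9 libraries) and lactation (orange, 6 libraries), with bars of 1 SD. ITGB1, ITGA6 and ITGB6 led in both states, and LAMA1 and ITGA8 were the lowest.

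The first question was how the families differed between the states. With edgeR's quasi-likelihood test and Benjamini-Hochberg adjustment over 13345 genes, 25 of the 35 genes tested were called at an adjusted p under 0.05, which is 71.4% beside 68.4% of all genes tested. Of these, 16 were lower in lactation, 45.7% beside 35.2% of all genes tested, and 9 were higher, 25.7% beside 33.1%. The median log2 change of the 35 was −0.31, and that of all genes tested was −0.03. In 15 of the 35 no late pregnancy library overlapped the lactation libraries, 42.9% beside 40.2% of all genes tested. Of these 12 were lower (34.3% beside 20.0%) and 3 were higher in lactation (8.57% beside 20.2%). The share called in either direction was thus near that of all genes, while more of the family lay on the lower side and fewer on the higher side. These shares rest in part on genes that passed the filter through late pregnancy alone. When only genes of 10 or more reads in each library were tested, 13 of 25 were lower and 5 higher. Of all 10079 genes tested under that filter, 3696 were lower and 3520 higher. Without HM lactation pool 1, 16 were lower and 8 higher, ITGA2 being the gene no longer called. Of all 13512 genes tested without that pool, 4647 were lower and 4386 higher. Within the libraries whose column names carry lane 7 and within those of lane 8, 14 and 15 were lower and 6 and 6 higher, although every library was run on 2 lanes. Of all 13287 genes tested in lane 7, 3432 were lower and 3482 higher. In lane 8 these were 3968 and 3796 of 13720. The lane 7 set holds no LM pool, and the lane 8 set holds every LM pool and no HM lactation pool. The sets thus differ in dam feed and hold fewer libraries, so a call lost in a set cannot be put down to the lane. Scaled by library size alone, the median of all genes moved to −1.94. There 34 of the 35 were called lower, as were 12705 of all 13345 genes tested. Each direction given here is therefore relative to the bulk of genes after TMM scaling. These are bulk samples, in which fewer cells of a type and less RNA per cell cannot be told apart.

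Among the 25 integrins tested, 12 were lower (48%, beside 35.2% of all genes tested), 5 were higher (20%, beside 33.1%) and 8 were not called. No beta chain was called higher, and 4 of the 8 were lower (ITGB4, ITGB6, ITGB7 and ITGB8). Among the 10 laminins tested, 4 were lower (40%), 4 were higher (40%) and 2 were not called. All 3 genes that were higher in lactation with no overlap between the states were laminins (LAMA3, LAMB4 and LAMC3), and a change of more than 2-fold was called in 3 laminins, all higher, and in 6 integrins, of which 5 were lower and ITGAM was higher. The share of all genes called with such a change was not taken, so this count describes these genes alone.

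**Figure D2:**
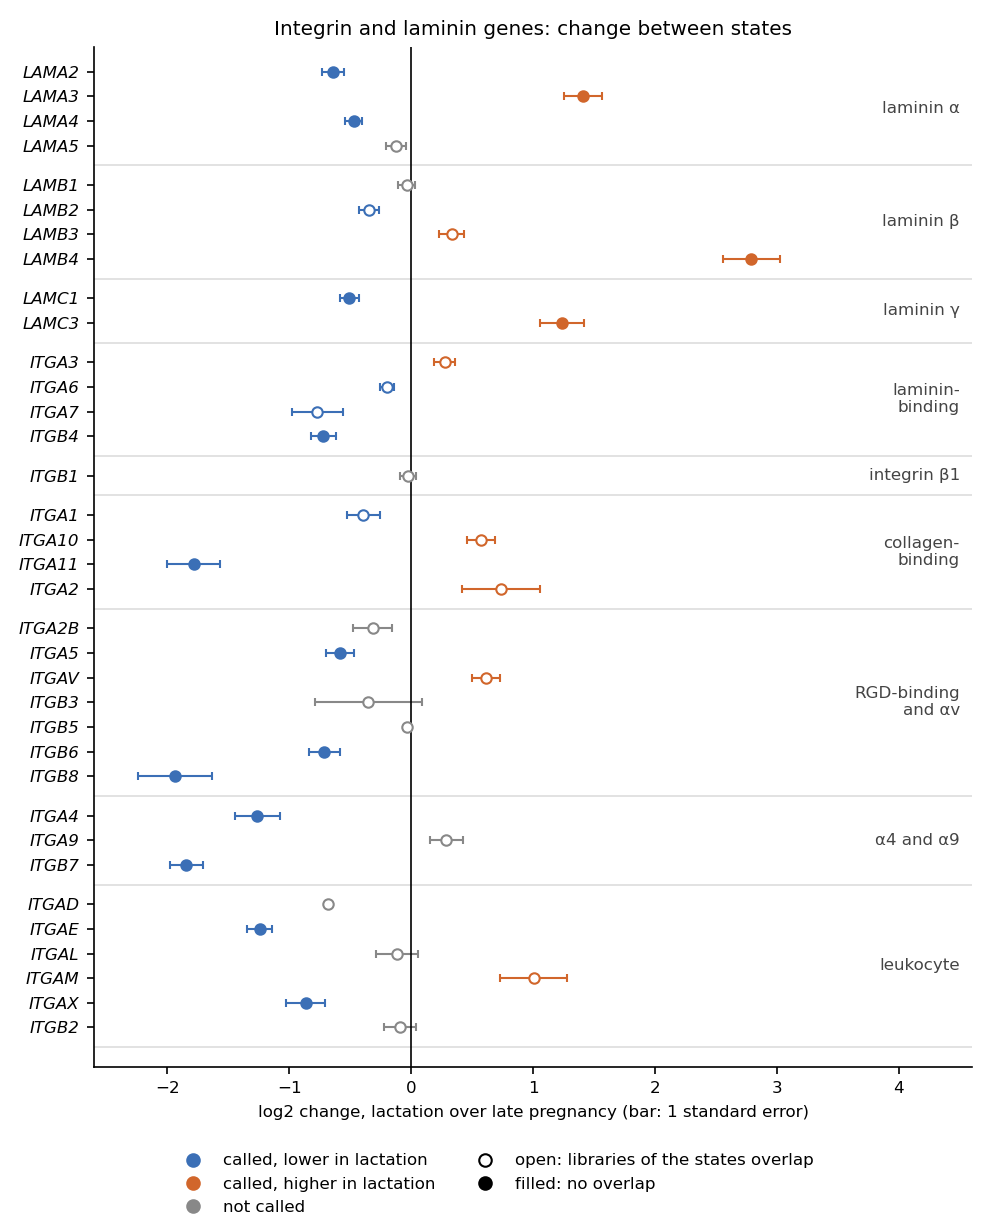
Log2 change of the 35 tested genes, lactation over late pregnancy after TMM scaling, grouped by role, with bars of 1 standard error (none drawn for ITGB5 and ITGAD, for which the fit gave no error). Filled points mark genes whose libraries did not overlap between the states; LAMB4, LAMA3 and LAMC3 lie to the right and ITGB8, ITGB7, ITGA11, ITGA4 and ITGAE to the left, and under library size scaling alone every gene tested but LAMB4 falls below 0.

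The laminin alpha chains moved in opposite directions. LAMA3, the alpha chain of the epithelial laminin that anchors hemidesmosomes (chromosome 23, 32998185 to 33254669, 75 exons), had a lowest, median and highest level of 25.9, 29.5 and 36.3 CPM in late pregnancy and of 44.3, 83.9 and 113 CPM in lactation. Every lactation library was above every late pregnancy library, and HM lactation pools 1 and 2 were the highest. The log2 change was 1.41 ± 0.15 (SE, adjusted p = 1.05e-07 by edgeR), a 2.65-fold higher level, and 1.34 without HM lactation pool 1. LAMA4, the alpha chain of vessel and fat basement membranes, had 43.4, 49.3 and 54.0 CPM in late pregnancy and 29.6, 36.4 and 40.3 in lactation, and LAMA2, the alpha chain of muscle and nerve, had 21.1, 24.9 and 31.3 CPM and 14.1, 15.4 and 19.4. Neither overlapped between the states. Their log2 changes were −0.47 ± 0.07 (adjusted p = 5.48e-06) and −0.64 ± 0.09 (adjusted p = 2.5e-06). LAMA5, a broadly expressed epithelial and vascular alpha chain, had 23.1, 26.6 and 29.6 CPM and then 18.6, 24.5 and 28.2, and was not called (log2 change −0.12 ± 0.08, adjusted p = 0.178).

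Among the beta chains, LAMB4 showed the largest change of all 35 genes. LAMB4, a beta chain of little known function (chromosome 4, 49088202 to 49206158), had 0.418, 0.647 and 1.05 CPM in late pregnancy, from 7 to 31 reads, and 2.81, 4.55 and 7.22 CPM in lactation, from 16 to 83 reads. The states did not overlap, the lowest lactation library lying above the highest of late pregnancy. The log2 change was 2.79 ± 0.23 (adjusted p = 1.81e-09), which is 6.91-fold, and per kilobase LAMB4 remained among the lower laminins in lactation (1.00 ± 0.37 CPM, SD, n = 6). LAMB3, a beta chain of epithelial laminin that joins LAMA3, had 20, 23.6 and 27.7 CPM in late pregnancy and 22.3, 29.1 and 37.0 in lactation. The ranges overlapped, and the log2 change was 0.33 ± 0.10 (adjusted p = 0.00602). Its call was lost under upper quartile scaling (0.18, adjusted p = 0.110), by limma on quantile-normalized RPKM (0.18, adjusted p = 0.0863) and in lane 7 alone (0.27, adjusted p = 0.171). LAMB2, a beta chain of vessels and muscle, was lower in lactation (33.6, 40.0 and 46.8 against 27.5, 29.0 and 37.0 CPM, log2 change −0.35 ± 0.08, adjusted p = 8.34e-04). LAMB1, the most abundant chain, had 62.4, 69.1 and 80.0 CPM and then 61.0, 69.5 and 77.5, and was not called (−0.04 ± 0.07, adjusted p = 0.662).

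The gamma chains LAMC1 and LAMC3 moved in opposite directions too. LAMC1, the gamma chain of most laminins, had 54.6, 65.7 and 77.4 CPM in late pregnancy and 43.0, 44.5 and 53.3 in lactation, with no overlap and a log2 change of −0.51 ± 0.08 (adjusted p = 8.17e-06). LAMC3, a gamma chain found outside most basement membranes, had 1.84, 2.09 and 2.92 CPM and then 3.16, 4.82 and 7.66, with no overlap and a log2 change of 1.24 ± 0.18 (adjusted p = 4.26e-06). LAMA3 and LAMB3, which join in one trimer, were thus both called higher in lactation, although each was lower under library size scaling alone (−0.49 and −1.58), while of the chains of the LAMA4, LAMB1 and LAMC1 trimer 2 were lower and LAMB1 was not called. Markers of cell types were set beside these genes, and the lists did not all move in one direction. Of the endothelial markers found (5 of 9 listed, none at 0 in every library), 4 of 5 tested were lower, and their summed level ranged from 158 to 214 CPM before and from 97.1 to 139 CPM after parturition. The fibroblast markers (5 of 8 listed) summed to 373 to 666 and 258 to 411 CPM, with 3 of 5 lower. The myoepithelial markers (8 of 10 listed) summed to 827 to 919 and 788 to 1140.3 CPM, with 2 lower and 4 higher of 8 tested, and the luminal markers (9 of 9) to 1775 to 2188 and 2506 to 2754 CPM, with 3 lower and 4 higher. Pericyte and vascular smooth muscle markers (7 of 7) summed to 26.0 to 56.2 and 22.0 to 37.0 CPM, with 3 of 7 lower. Adipocyte markers (6 of 7 listed), mostly FABP4, summed to 223 to 428 and 303 to 394 CPM, with 0 of 4 tested lower or higher. Schwann cell markers (6 of 6), mostly SOX10, summed to 77.1 to 100 and 80.3 to 93.4 CPM, with 1 of 3 tested lower. The part of these cell types in the laminin changes was not tested.

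Because a share within a library does not depend on the scaling between libraries, the composition of the laminin chains was compared directly. Each chain was expressed as a percent of the reads per kilobase over all chains of its kind, and the difference between states was tested by a two-sided exact permutation test over all 5005 ways to assign the libraries to groups of 9 and 6, whose smallest possible p is 0.0004, adjusted over 35 shares. LAMA3 supplied 15.9, 19.4 and 21.1% (lowest, median and highest library) of laminin alpha chain reads in late pregnancy and 33.2, 45.2 and 51.9% in lactation. LAMA4 went the other way, from 46.3, 48.6 and 50.2% to 28.7, 30.6 and 40.6%, and LAMA2 from 15.2, 16.1 and 19.6% to 7.10, 10.1 and 12.1%. None of these ranges overlapped, and each difference had an exact permutation adjusted p of 0.00108. LAMA4 was thus the leading alpha chain in every late pregnancy library, and the median share of LAMA3 was above that of LAMA4 in lactation. The share of LAMA5 was 2.58 percentage points lower (exact permutation adjusted p = 0.0127), a call lost on quantile-normalized RPKM (exact permutation adjusted p = 0.103), and LAMA1 never exceeded 0.719%. Shares of one kind are parts of one total, so a higher LAMA3 share by itself lowers the shares of the other alpha chains. The CPM of LAMA5 were not called as changed.

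Of the beta chains, LAMB2 fell by 6.13 percentage points and LAMB4 was 2.94 percentage points higher (exact permutation adjusted p = 0.00108 for each). LAMB3 was 5.49 points higher (exact permutation adjusted p = 0.00442). For LAMB1, which held 42.7 to 50.0% of the beta chains in late pregnancy libraries and 40.0 to 46.7% in lactation libraries, the difference was not past the threshold (exact permutation adjusted p = 0.138), though on quantile-normalized RPKM it was (−3.44 points, exact permutation adjusted p = 0.0371).

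**Figure D3:**
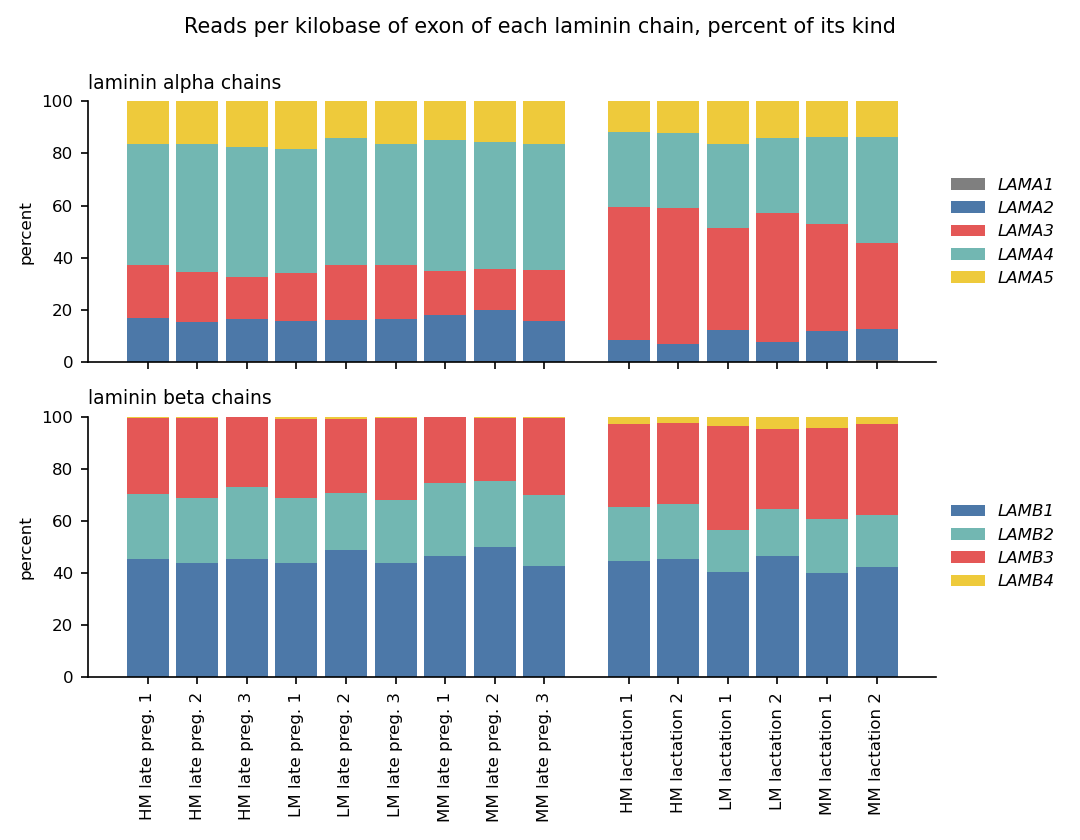
Share of each laminin chain among the alpha chains and among the beta chains (percent of reads per kilobase of exon) in each of the 9 late pregnancy and 6 lactation libraries. In every lactation library the LAMA3 share (33.2 to 51.9%) was above its highest share in late pregnancy (21.1%), and the LAMA4 share (28.7 to 40.6%) was below its lowest (46.3%).

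The laminin receptors were called in all 4 cases, 3 lower and 1 higher, where 68.4% of all genes tested were called. ITGB4, the beta chain that links laminin to keratin filaments at hemidesmosomes, had 12.9, 15.9 and 18.2 CPM in late pregnancy and 6.86, 9.92 and 11.0 in lactation. The states did not overlap (log2 change −0.72 ± 0.10, adjusted p = 3.32e-06). Its partner ITGA6 differed less, with 188, 208 and 232 CPM and then 174, 181 and 203, overlapping ranges and a log2 change of −0.20 ± 0.06 (adjusted p = 0.00493) whose call was lost in lane 7 alone (−0.15, adjusted p = 0.136). ITGA7, the laminin receptor of muscle, was also lower (3.1, 4.29 and 6.10 against 1.41, 2.61 and 3.72 CPM, log2 change −0.77 ± 0.21, adjusted p = 0.00272). ITGA3, which pairs with beta 1 to bind epithelial laminins, was higher in lactation at 13.9, 15.2 and 18.5 against 14.5, 18.8 and 22.3 CPM (log2 change 0.27 ± 0.09, adjusted p = 0.00942), with ranges that overlapped. The call of ITGA3 was lost under upper quartile scaling (0.12, adjusted p = 0.22), with the filter of 10 or more reads in each library (0.19, adjusted p = 0.0612) and in lane 8 alone (0.14, adjusted p = 0.338). So the receptor chains did not follow the LAMA3 and LAMB3 chains in one direction. ITGB1 had 137, 165 and 187 CPM and then 152, 157 and 170, and was not called (−0.03 ± 0.06, adjusted p = 0.733), though it was called lower under upper quartile scaling (−0.18, adjusted p = 0.0228) and by limma on quantile-normalized RPKM (−0.29, adjusted p = 0.00173).

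The collagen receptors, alpha chains that pair with beta 1, divided 2 and 2, where 68.4% of all genes tested were called. ITGA11, a collagen receptor of fibroblasts, had 2.23, 2.95 and 4.07 CPM in late pregnancy and 0.381, 0.926 and 1.05 in lactation, with no overlap and a log2 change of −1.78 ± 0.22 (adjusted p = 4.25e-07), although with 2 to 11 reads in lactation it passed the filter through its late pregnancy reads. ITGA1, carried by smooth muscle and stroma, was lower by a smaller step (9.91, 11.7 and 17.7 against 8.27, 9.39 and 13.4 CPM, −0.39 ± 0.13, adjusted p = 0.0142). ITGA10, first described in cartilage, was higher (4.66, 5.51 and 6.65 against 5.98, 8.34 and 11.0 CPM, 0.57 ± 0.11, adjusted p = 1.65e-04). ITGA2, an epithelial and platelet collagen receptor, had 0.836, 1.46 and 2.50 CPM and then 1.09, 2.78 and 5.10, and its call (0.74 ± 0.32, adjusted p = 0.0462) was lost when any of 9 libraries was left out, with log2 changes of 0.46 to 0.92 over the 15 omissions. COL1A1, the main fibrillar collagen chain and a fibroblast marker, was at 283 ± 79.4 CPM in late pregnancy (SD, n = 9) and 108 ± 27.6 in lactation (SD, n = 6). Its log2 change of −1.39 ± 0.18 was the largest of the 5 fibroblast markers found. PDGFRA and DCN were lower by less (−0.61 ± 0.12 and −0.41 ± 0.12). LUM (−0.24 ± 0.11) and DPT (0.27 ± 0.17) were not called. The part of fibroblast number in the ITGA11 fall was not tested.

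Of the 7 tested receptors that bind the RGD motif of matrix proteins or carry the alpha v chain, 3 were lower, 1 was higher and 3 were not called. This is 42.9% lower and 14.3% higher, beside 35.2% and 33.1% of all genes tested. ITGAV, the alpha v chain itself, was higher in lactation, with 19.6, 22.0 and 30.5 CPM and then 27.9, 31.6 and 45.9 (log2 change 0.61 ± 0.11, adjusted p = 8.11e-05). The ranges overlapped through HM late pregnancy pool 2 alone, which at 30.5 CPM lay above the next late pregnancy library at 24.9 CPM. Its beta partners did not rise with it, and under library size scaling alone ITGAV itself was lower (−1.29). ITGB6, which with alpha v activates latent TGF-beta on epithelium, had 56.6, 76.2 and 99.1 CPM and then 33.7, 45.4 and 53.0, without overlap (−0.71 ± 0.13, adjusted p = 4.72e-05). ITGB8, another partner of alpha v that binds latent TGF-beta, had 1.64, 2.35 and 3.88 CPM and then 0.22, 0.60 and 1.13, without overlap (−1.94 ± 0.30, adjusted p = 1.12e-05). With 1 to 10 reads in lactation, it passed the filter through its late pregnancy reads. ITGB5, the vitronectin receptor chain, had 12.2, 13.9 and 15.5 CPM and then 11.9, 12.9 and 15.6, and was not called (−0.03, adjusted p = 0.942). ITGA5, the fibronectin receptor chain, was lower without overlap (13.6, 15.6 and 20.9 against 8.0, 10.4 and 12.9 CPM, −0.58 ± 0.12, adjusted p = 1.68e-04). The chains of the platelet fibrinogen receptor, ITGA2B (4.90, 6.83 and 9.24 against 4.0, 5.24 and 7.10 CPM) and ITGB3 (0.217, 0.711 and 1.06 against 0, 0.489 and 0.783 CPM), were not called (adjusted p = 0.0895 and 0.488). Of 6 platelet markers found none had enough reads for a test, and PPBP and GP9 were at 0 in every library.

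ITGB7, ITGAE and ITGA4, chains carried by lymphocytes, were lower in lactation by more than 2-fold each. ITGB7, the beta chain of the mucosal homing and retention receptors, had 11.6, 14.3 and 18.5 CPM in late pregnancy and 2.58, 4.11 and 5.80 in lactation, a 3.59-fold lower level (−1.84 ± 0.14, adjusted p = 3.18e-10). ITGAE, the alpha chain that with ITGB7 binds E-cadherin on epithelium, had 16.7, 19.1 and 20.6 CPM and then 5.80, 7.93 and 10.5 (−1.24 ± 0.10, adjusted p = 1.14e-09). ITGA4, the other alpha partner of ITGB7, had 3.00, 3.76 and 4.27 CPM and then 0.659, 1.53 and 2.29 (−1.26 ± 0.18, adjusted p = 5.08e-06). With 3 to 18 reads in lactation, ITGA4 passed the filter through its late pregnancy reads. None of the 3 overlapped between the states. T cell markers moved with them: all 8 of the tested markers were lower, with a median log2 change of −1.61, and the 9 listed markers summed to 48.3 to 77.6 CPM in late pregnancy and 15.6 to 24.2 in lactation, with none at 0 in every library and CD4 too low for a test. The part of T cell number in these falls was not tested. ITGA9, a receptor of tenascin and lymphatic valves, was not called (2.21, 2.85 and 3.45 against 2.99, 3.39 and 3.93 CPM, 0.29 ± 0.14, adjusted p = 0.0662).

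The beta 2 leukocyte integrins did not move together. ITGB2, their common beta chain, had 4.66, 6.39 and 8.17 CPM in late pregnancy and 4.75, 6.24 and 7.89 in lactation and was not called (−0.09 ± 0.13, adjusted p = 0.548). Neither was ITGAL, the alpha chain of lymphocytes (3.87, 5.04 and 6.12 against 2.44, 4.73 and 7.25 CPM, −0.11 ± 0.17, adjusted p = 0.572). ITGAX, the alpha chain of dendritic cells and macrophages, was lower without overlap (4.05, 5.24 and 5.74 against 1.1, 2.94 and 3.57 CPM, −0.86 ± 0.16, adjusted p = 6.77e-05). Its reads were 54 to 168 in late pregnancy and 5 to 41 in lactation. ITGAM, the alpha chain of monocytes and neutrophils, was higher (0.457, 0.693 and 1.48 against 0.949, 1.40 and 2.64 CPM, 1.01 ± 0.28, adjusted p = 0.00309), from 5 to 26 and 6 to 20 reads, a call lost in lane 8 alone (0.71, adjusted p = 0.146). ITGAD, a macrophage alpha chain, had 0.325, 0.460 and 0.905 CPM and then 0, 0.305 and 0.522, and was not called (−0.68, adjusted p = 0.129). The macrophage markers (8 of 9 listed) summed to 146.2 to 194 CPM in late pregnancy and 83.7 to 121 in lactation, with 4 lower and 1 higher (CD14) of 7 tested. The neutrophil markers (6 of 7 listed) summed to 7.69 to 11.7 CPM and then 2.64 to 5.52, a sum made up mostly of FCGR3A (8.05 ± 1.25 and 2.60 ± 0.73 CPM). Of 2 tested, FCGR3A was lower (−1.63 ± 0.16), against the direction of ITGAM, and CSF3R was not called (−0.46). S100A8, S100A12, MMP9 and CXCR2 were too low for a test, so the sum speaks for FCGR3A more than for the list. The part of these cells in the ITGAX and ITGAM changes was not tested.

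**Figure D4:**
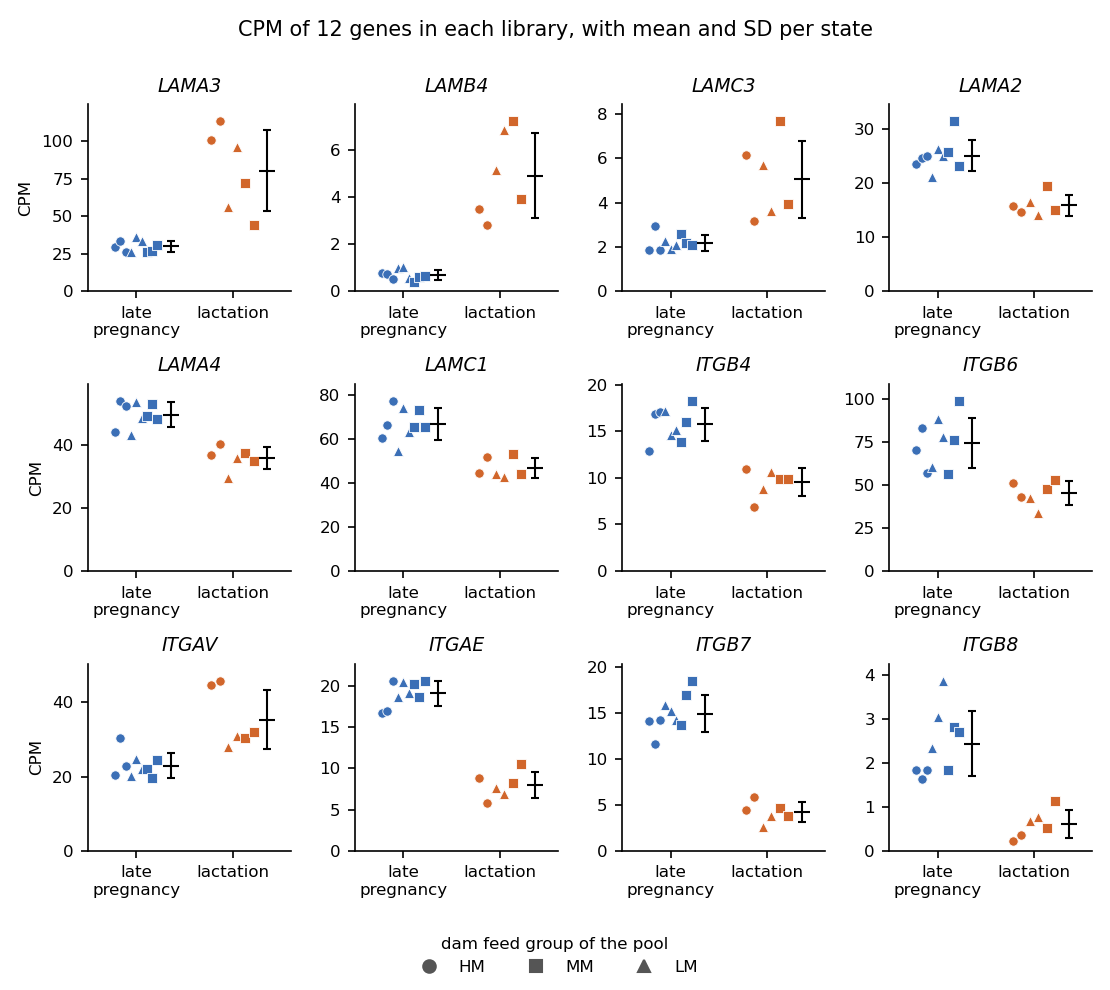
CPM of 12 integrin and laminin genes in each library of late pregnancy (blue, n = 9) and lactation (orange, n = 6), with symbols for the dam feed group and the mean and SD of each state in black; the genes were chosen for plotting after their values were seen. The states are apart for every gene plotted except ITGAV, where HM late pregnancy pool 2 (30.5 CPM) lies among the lactation libraries.

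Integrin composition was compared in the same way as that of the laminins. ITGB1 supplied 52.1, 56.8 and 62.3% of integrin beta chain reads per kilobase in late pregnancy and 64.1, 68.1 and 71.4% in lactation (exact permutation adjusted p = 0.00108), although its CPM were not called as changed. ITGB6 fell by 7.03 percentage points (exact permutation adjusted p = 0.00311) and ITGB7 fell by 3.27 points (exact permutation adjusted p = 0.00108). The shares count reads on annotated exons, which held the smaller part of the ITGB6 reads in every library. Of the alpha chains, ITGA6 held 54.1, 55.9 and 60.2% and then 50.2, 53.8 and 58.9%, a difference not past the threshold (exact permutation adjusted p = 0.0944), though on quantile-normalized RPKM it was (−7.67 points, exact permutation adjusted p = 0.00127). ITGAV rose from 8.70, 9.83 and 12.4% to 14.1, 15.9 and 20.9%, and ITGAE fell by 3.15 percentage points (exact permutation adjusted p = 0.00108 for each). In all, 26 of the 35 laminin and integrin shares differed, 11 higher and 15 lower in lactation. Since the shares of a kind make up one total, these are not separate results. A share can also move without a change in its own gene.

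Ratios of paired genes within a library, which also need no scaling, differed between the states for 6 of 8 pairs of partner chains and for all 3 pairs of alternative chains of one kind (ITGA6 and ITGA3, LAMB2 and LAMB1, LAMA5 and LAMA4; exact permutation test over the same 5005 assignments, adjusted over 11 pairs). The reads per kilobase of ITGAV stood at 0.185, 0.218 and 0.302 of those of ITGB6 in late pregnancy libraries and at 0.456, 0.573 and 0.80 in lactation libraries, the largest difference of the 11 (1.32 on the log2 scale, exact permutation adjusted p = 0.00147). This ratio rests on annotated exons, which held the smaller part of the ITGB6 reads in every library. Outside exons neither gene was called by edgeR (log2 change −0.12 ± 0.12 for ITGB6 and 0.02 ± 0.12 for ITGAV). ITGAV against ITGB5 went from 1.33, 1.45 and 2.00 to 1.80, 2.13 and 3.47 (exact permutation adjusted p = 0.00366). The excess of ITGA6 over ITGB4 grew from 10.7, 13.1 and 15.7 to 15.9, 17.6 and 29.1, without overlap (exact permutation adjusted p = 0.00147), and that of ITGA6 over ITGA3 shrank from 10.5, 12.6 and 14.8 to 7.4, 9.02 and 10.8 (exact permutation adjusted p = 0.00220). Laminin partners shifted too, LAMB1 against LAMC1 going from 1.35, 1.48 and 1.59 to 1.64, 2.05 and 2.51, without overlap (exact permutation adjusted p = 0.00147). For ITGAL against ITGB2 and ITGB7 against ITGA4 the differences were not past the threshold (exact permutation adjusted p = 0.789 and 0.101).

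Several of the genes lie side by side in the genome. ITGA2 and ITGA1 are 24.0 kb apart on chromosome 16, with log2 changes of 0.74 and −0.39, and ITGAM and ITGAX 16.0 kb apart on chromosome 24, with 1.01 and −0.86. LAMB1 and LAMB4 are 28.5 kb apart on chromosome 4, with −0.04 (not called) and 2.79. ITGAX and ITGAD, 26.6 kb apart on chromosome 24, had −0.86 and −0.68, the latter not called. The coordinates are those of the deposited table, whose build is named Oar v3.1 in the submitters' processing notes.

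Reads that fell within a gene but outside its annotated exons gave another readout of the same libraries. They hold introns and any exons or UTRs that the annotation lacks. Of the 37 genes, 28 had enough such reads for a test. With edgeR's quasi-likelihood test over 10344 genes, 8 of the 28 were lower in lactation (29.0% of all genes tested were) and 5 were higher (29.0%). All 10 genes called on both readouts moved in the same direction: ITGA4, ITGA11, ITGAE, ITGB4, ITGB7, ITGB8 and LAMA4 were lower, and LAMA3, LAMB3 and LAMB4 were higher. Both readouts come from the same libraries. The share of all genes called on both that moved in the same direction was not taken, so this count describes these genes alone. In lactation libraries ITGA4 had 0 to 5 reads outside exons, ITGB4 and ITGB8 0 to 6 each and ITGB7 2 to 13. These genes entered this test through their late pregnancy reads, so their lower calls rest on few lactation reads. LAMB4 had a log2 change of 2.81 ± 0.19 outside exons (adjusted p = 7.46e-12), close to the 2.79 on exons, and LAMA3 one of 1.03 ± 0.11 (adjusted p = 2.17e-08). ITGA11 fell by 3.1 ± 0.37 on the log2 scale (adjusted p = 1.48e-07), with 22 to 67 reads in late pregnancy libraries and 0 to 4 in lactation libraries, and here too passed the filter through late pregnancy. Without HM lactation pool 1, the lactation library with the most reads outside exons for its size, 7 were lower and 6 were higher: LAMA4 was no longer called (−0.30 ± 0.13, adjusted p = 0.0528) and ITGA2 came to be tested and called (1.02 ± 0.33, adjusted p = 0.0107).

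Other genes differed between the readouts. ITGA9 was higher outside exons (1.64 ± 0.16, adjusted p = 3.68e-09) and was not called on exons, and the share of its reads outside exons was 22.0 to 32.2% in late pregnancy and 46.0 to 63.4% in lactation. ITGA2B was higher (0.68 ± 0.24, adjusted p = 0.0205) and ITGAL was lower (−0.91, adjusted p = 0.00297) outside exons only. ITGAL had 8 to 29 such reads in late pregnancy libraries and 2 to 9 in lactation libraries. The test of the difference between the readouts was not run. ITGB6 and LAMB4 had more reads outside their annotated exons than on them in every library. For LAMB4 these were 61.5 to 80.0% of its reads in late pregnancy libraries and in lactation libraries 57.1 to 75.8%, and for ITGB6 58.0 to 66.1% of its total in late pregnancy and 68.5 to 74.6% of it in lactation. The fall of ITGB6 on exons had no called counterpart outside them (−0.12 ± 0.12, adjusted p = 0.392). The same held for LAMC1 (0.29 ± 0.26 outside exons, adjusted p = 0.362), LAMA2 (−0.13 ± 0.15, adjusted p = 0.458) and, for a rise, ITGAV (0.02 ± 0.12, adjusted p = 0.895). In lactation libraries LAMC1 had only 4 to 12 such reads and LAMA2 11 to 30, beside 442 to 1378 for ITGB6, so their values say less.

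**Figure D5:**
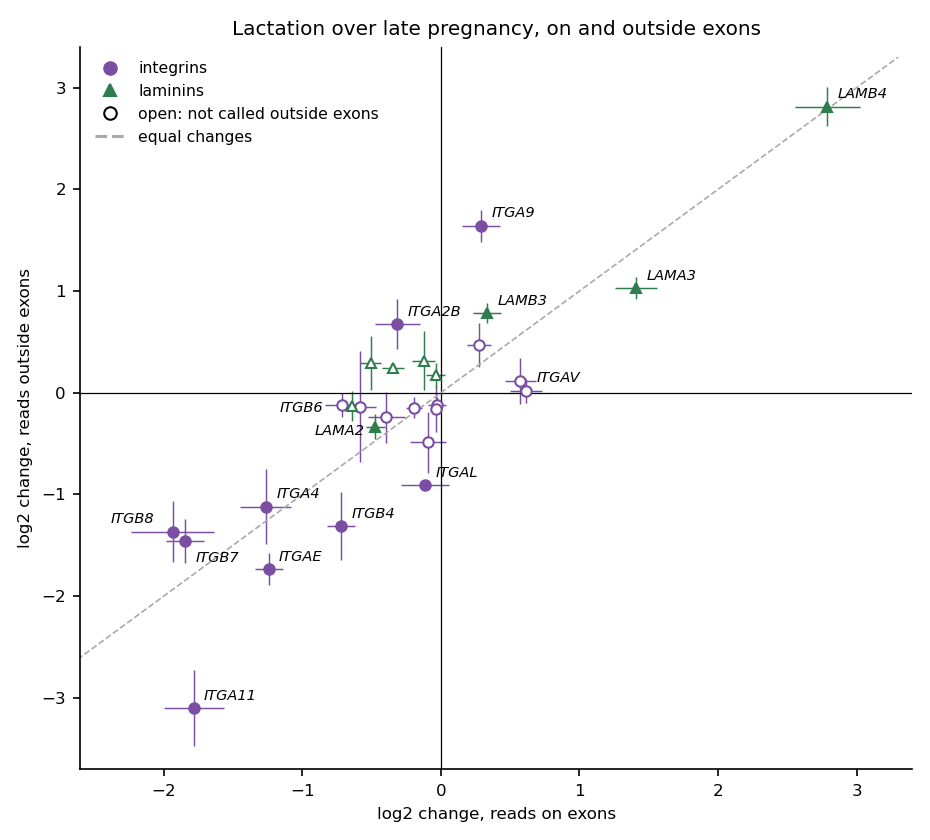
Log2 change of 28 genes (lactation over late pregnancy) on exons (horizontal) and outside exons (vertical), integrins as circles and laminins as triangles, with bars of 1 standard error where the fit gave one and a dashed line of equal changes. LAMB4 and LAMA3 lie at the upper right and ITGB7, ITGB8, ITGAE, ITGA4 and ITGA11 at the lower left, while ITGA9 (1.64 outside exons) stands above the line.

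Feeding of the ewes' dams was compared over the 9 late pregnancy libraries. None of the 37 genes was called by edgeR's quasi-likelihood test (0% of 13747 genes were), and 1 of them, ITGB8, had an unadjusted p under 0.05 beside 4.15% of all genes. The DESeq2 likelihood ratio test called 0 of them as well. ITGB8 had 1.78 ± 0.12 CPM in HM pools, 2.46 ± 0.54 in MM and 3.09 ± 0.76 in LM (SD, n = 3, adjusted p = 1.00 by edgeR, unadjusted p = 0.0254). The interaction of dam feeding with state was called for none of the 35 genes (0% of 13345 were), and 3 of them (LAMB3, ITGB7 and LAMA3) had an unadjusted p under 0.05, beside 6.56% of all genes. Of the 25 genes called between the states, 24 had the same direction within each of the 3 dam feed groups. The exception was LAMB3, with log2 changes of −0.11 in HM, 0.60 in MM and 0.41 in LM (adjusted p of the interaction = 0.735 by edgeR). The 25 genes had been called over these same libraries, so such agreement is in part set in advance. The share of all called genes that kept their direction was not taken.

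The other genes of matrix adhesion were taken from lists of 94 genes, of which 79 were found under a symbol of their own and 71 were tested. Of these 32 were lower, 23 were higher and 16 were not called in lactation, with a median log2 change of −0.21. This is 45.1% lower and 32.4% higher, beside 35.2% and 33.1% of all genes tested. The partners of laminin in the basement membrane numbered 14 tested, of which 11 were lower (78.6%) and 2 were higher (14.3%), a count with no test of its own. TINAGL1, a laminin-binding matrix protein, had 158 ± 31.6 CPM in late pregnancy (SD, n = 9) and 24.2 ± 2.97 in lactation (SD, n = 6), a log2 change of −2.70 ± 0.13 (adjusted p = 4.16e-13), and COL4A5, a collagen IV chain, one of −1.49 ± 0.13 (adjusted p = 2.88e-09). The collagen IV chains COL4A1 and COL4A2 were the 2 that were higher (0.40 ± 0.12 and 0.53 ± 0.12). Among other laminin receptors and hemidesmosome proteins 4 of 11 were lower (36.4%, near the 35.2% of all genes), with BCAM, a receptor of LAMA5 laminins, at −1.28 ± 0.09 and the proteoglycan SDC1 at −1.13 ± 0.12. The 3 that were higher included PLEC, which ties ITGB4 to keratin filaments, at 0.86 ± 0.07 (adjusted p = 1.19e-09), and the proteoglycan SDC4 at 0.37 ± 0.10.

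Of 29 cytoplasmic adaptors of integrins tested, 16 were higher (55.2% beside 33.1% of all genes) and 8 were lower (27.6% beside 35.2%). BCAR1 and TNS4, scaffold proteins of focal adhesions, had log2 changes of 1.31 ± 0.11 and 1.66 ± 0.18, and the kinases PTK2B and FYN −1.06 ± 0.15 and −1.14 ± 0.11. Of 17 integrin ligands tested 9 were lower (52.9% beside 35.2%) and 2 were higher (11.8% beside 33.1%). MFGE8, a milk fat globule protein whose RGD motif binds alpha v integrins, rose from 119.9 ± 35.2 to 3282 ± 552 CPM (log2 change 4.78 ± 0.17, adjusted p = 3.6e-15), and the tenascin TNXB was 0.29 ± 0.10 higher. LTBP1, which holds latent TGF-beta in the matrix, had a log2 change of −1.22 ± 0.14, and COL1A1 one of −1.39 ± 0.18. The ligands, receptors and adaptors therefore did not share a direction in these libraries.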

How the data were processed

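Total RNA of mammary biopsies was pooled and sequenced by the authors as paired reads of 100 bases on an Illumina Hi-Seq. The authors mapped and counted them in CLC Genomics Workbench (version not given in the sources used here) on the sheep genome, named Oar v3.1 in the submitters' processing notes and by another version number in the methods. The deposited table holds raw counts per gene (total and unique, for exons and for the whole gene), the authors' RPKM, and a signal that the authors made by quantile normalization of the RPKM. The authors' columns of fold changes and p-values were not used. Samples were grouped by the source labels.

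Counts of reads on exons (whole-gene reads for features with no annotated transcript) were tested with edgeR 4.0.16 in R 4.3.3 over 15 libraries, after the filterByExpr filter and TMM scaling, by the quasi-likelihood F-test with state as the single term. Benjamini-Hochberg adjustment ran over all genes tested, and calls were made at an adjusted p under 0.05. The standard error is the log2 change over the root of F. Shares and ratios were taken from reads per kilobase of exon and tested by exact permutation. Named genes were the integrins and laminins and, of each list of pathway genes, the 2 with the largest called change in each direction at a mean of at least 1 CPM. Of the genes found by the rule, 1 is not reported here. The genes and lists were chosen with earlier results of these data known. Tests were checked on simulated data. Alternatives used DESeq2 1.42.0, limma 3.58.1 on the log2 of the deposited quantile-normalized RPKM plus 1, other scalings and filters, single lanes, and each library left out (for reads outside exons, an alternative chosen after seeing the data). Depth is given with the results. Intervals for counting error are not given, since reads without molecular identifiers are not independent molecules.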

Additional observations from a re-analysis of the deposited data

Results flagged for a closer look

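In 9 of 158 series of values over the libraries of a state, 1 library lay far from the others by Dixon's test at the 95% level, and chance alone flags about 1 in 20 such groups. For levels, these were ITGA1 in HM lactation pool 2 (13.4 CPM, others 8.27 to 9.89), ITGA11 in LM lactation pool 2 (0.381 CPM, others 0.879 to 1.05), ITGAV in HM late pregnancy pool 2 (30.5 CPM, others 19.6 to 24.9) and LAMA2 in MM late pregnancy pool 2 (31.3 CPM, others 21.1 to 26.2). For shares, they were ITGA11 in LM lactation pool 2 (0.140% of integrin alpha chains, others 0.299 to 0.351%), ITGAD in MM late pregnancy pool 3 (0.363% of integrin alpha chains, others 0.143 to 0.251%) and ITGB2 in HM late pregnancy pool 2 (1.98% of integrin beta chains, others 2.88 to 3.68%). For log2 ratios, they were ITGAL to ITGB2 in HM late pregnancy pool 2 (−0.57, others −1.69 to −1.18) and ITGAM to ITGB2 in HM late pregnancy pool 3 (−3.02, others −4.46 to −3.96). HM late pregnancy pool 2, the library with the fewest reads, accounts for 3 of the 9.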

How the results depend on the processing

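Most calls kept their direction and side of the threshold. Scaling by library size alone called 34 of the genes lower and 1 higher, 69 pathway genes lower and 1 higher, and outside exons 17 lower and 3 higher. It reversed ITGA10 (−1.33), ITGA2 (−1.17), ITGA3 (−1.63), ITGA9 (−1.62), ITGAM (−0.89), ITGAV (−1.29), LAMA3 (−0.49), LAMB3 (−1.58) and LAMC3 (−0.66), and it lowered the median of all genes by construction. Upper quartile scaling moved that median to −0.18 and called 21 lower and 6 higher. Of all 13345 genes tested, it called 5990 lower and 3420 higher. Under a filter of 10 or more reads in each library, 25 of the 35 genes were tested, of which 13 were lower and 5 were higher. Of all 10079 genes tested under it, 3696 were lower and 3520 higher. ITGA3 was tested there but lost its call. ITGB5 changed sign in lane 7 (0.022), LAMB1 in lane 8 (0.053) and ITGAL with limma (0.062), and with quantile-normalized RPKM the shares of ITGA2B (0.191 percentage points) and ITGB3 (0.0389) did. None of these was called. The cause was not tested. Upper quartile scaling also called ITGA2B, ITGB1, ITGB5, LAMA5 and LAMB1 lower and lost ITGA2, ITGA3 and LAMB3. At least 10 reads also called LAMA5 and ITGA2B lower, and limma called ITGA9 higher and ITGB1 lower and lost ITGA1 and LAMB3. Single lanes lost ITGA1, ITGA2, ITGA6, ITGA10 and LAMB3 (lane 7) and ITGA2, ITGA3, ITGA7 and ITGAM (lane 8), in sets that hold fewer libraries and differ in dam feed. Of the shares, quantile-normalized RPKM lost LAMA5, ITGA1, ITGA7, ITGAX and ITGB4 and added LAMB1, ITGA6 and ITGB2. Leaving out each library gave 16 to 17 lower, 8 to 10 higher, 23 to 27 shares and 9 to 10 ratios, and outside exons 7 to 8 lower and 5 to 7 higher. Over the same omissions the log2 change was −0.24 to 0.023 for ITGAL, −0.052 to 0.0023 for ITGB1 and −0.19 to 0.082 for ITGAL to ITGB2, and the shares differed by −0.132 to 0.246 points for ITGAL, −0.0599 to 0.00788 for ITGB3 and −0.104 to 0.0398 for LAMA1.

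States share pool numbers in the labels, but same-numbered pools did not deviate together (correlations of −0.040 to 0.057 over 6 pairs, 0 above 0.1). With a replicate block, 16 genes were lower and 9 higher, as without it, ITGB5 changed sign uncalled (0.012), and 2 genes had an unadjusted p under 0.05 for dam feeding. Depth limits ITGA8, LAMA1, ITGAD, ITGB3, ITGB8, ITGA11 and ITGA4, which held few reads in lactation. ITGAX, ITGA7, ITGA2 and ITGAM held few reads in some lactation libraries.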
